A study of Homo sapiens with 6 samples.

Results

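Steroid hormones are made from cholesterol, and the first committed step takes place inside the mitochondrion. Cholesterol has to cross from the outer to the inner mitochondrial membrane, where the side-chain cleavage enzyme cuts it to pregnenolone with electrons handed on from NADPH by a flavoprotein and a small iron-sulphur protein. In the adrenal cortex, entry of cholesterol limits the acute response to hormone, and the amount of enzyme and electron carriers sets the longer-term capacity. The genes described here were STAR, TSPO and STARD3, which concern cholesterol transfer, CYP11A1, the side-chain cleavage enzyme, and FDX1 and FDXR, the electron carriers. They were chosen by name, and every probe set to which the platform annotation gives 1 of these symbols and no other was taken. This gave 7 of 54613 probe sets, for 5 of the 6 genes: 1 each for STAR, STARD3, TSPO and CYP11A1, and 3 for FDX1. FDXR, which passes electrons to ferredoxin, had no probe set with its symbol alone in that annotation and was not analysed here. Probe sets with several symbols were not searched for these genes.

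The measurements came from 6 Affymetrix HG-U133 Plus 2.0 arrays hybridised with total RNA of H295R/TR SF-1 cells. H295R is a human adrenocortical carcinoma line that makes steroids, and in this subclone of it doxycycline raises the nuclear receptor SF-1 above the level the cells already have. Of the arrays, 3 were labelled as cells given doxycycline at 1 µg/mL for 72 h (Dox), and 3 as cells kept for 72 h in basal conditions (basal). Both groups carried the same inducible construct and grew in the same medium, so no group lacked the construct, and all cells came from 1 subclone. Arrays of 1 condition were biological replicates according to the methods. Arrays are named by label and order of deposition (Dox 1 to 3, basal 1 to 3), and the numbers pair nothing. Values are GCRMA signals on the log2 scale, where 1 unit is 2-fold. In bulk RNA, fewer cells with a transcript and less of it per cell cannot be told apart.

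The gene to be induced did not separate the labels, so directions below are those of arrays labelled Dox against arrays labelled basal. NR5A1, which encodes SF-1, was at 5.55, 6.21 and 6.41 on Dox 1, 2 and 3, against 5.84, 5.92 and 6.30 on basal 1, 2 and 3. Its lowest value was on an array labelled Dox, and the groups differed by 0.03 ± 0.24 (SE, exact permutation p = 1, n = 3 each). The lowest NR5A1 signal, 5.55 on Dox 1, lay just below the median of that array, 5.57. Whether a probe set near the median level can show the induction was not tested. The sources used here do not say whether the single NR5A1 probe set reads the transcript of the construct. For SF-1 protein, the paper reports overexpression after doxycycline by immunoblot in these cells. Dox 1 was nearly the same as basal 1, with an SD of 0.134 for their difference over all probe sets, and Dox 2 nearly the same as basal 3, with an SD of 0.149. Between arrays of 1 label that SD was 0.258 to 0.452. Whether labels of some arrays were exchanged cannot be told from these files. An exchange would change the size or sign of every difference given here that uses the arrays concerned. Dox 3 and basal 2 formed the remaining pair, at 0.318. The medians of the arrays lay between 5.56 and 5.60.

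Of 9 measured markers of adrenocortical steroid-making cells, 4 lay above the median signal on all arrays, among them CYP17A1, the 17-hydroxylase, at 7.83 to 8.99 on Dox arrays and 7.85 to 9.56 on basal arrays, and the lipoprotein receptor SCARB1. CYP11B1 and INHA lay below it on all arrays. The mean level of these markers was 6.99 to 7.31 on Dox arrays and 6.98 to 7.47 on basal arrays. Endothelial markers averaged 4.93 to 5.01 on Dox arrays and 4.89 to 4.98 on basal arrays, and blood cell markers 5.04 to 5.17 on Dox arrays and 5.06 to 5.23 on basal arrays. Chromaffin markers averaged 5.31 to 5.68 on Dox arrays and 5.52 to 5.68 on basal arrays, and stromal markers 5.64 to 5.89 on Dox arrays and 5.62 to 5.94 on basal arrays. All 7 probe sets described here lay above the median on all 6 arrays. TSPO was the lowest of them, at 6.18 to 6.86. The blood cell marker HBB, at 6.50 to 6.64, and the chromaffin marker PNMT, at 6.37 to 6.85, were at a similar level. A signal above the median thus does not by itself show that a transcript was present.

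CYP11A1 and FDX1 are shown with the 250 bases before their start, since among the genes with a window they carried letters like the half-site to which SF-1 binds. RefSeq windows on GRCh38.p14 were at hand for 5 of the 6 genes, all but STAR. The core AAGGTCA was found on neither strand in any of their windows of 300 bases, against 3.92% of 35116 windows over all genes. Other forms were added after that. They were CAAGGNCA, which 5.28% of windows hold on either strand, and AGGTCA, which is part of AAGGTCA and which 13.8% hold. Capitals mark the match, which for CYP11A1 reads CAAGGNCA on the opposite strand at positions -47 to -40 from the start, and for FDX1 reads AGGTCA at positions -16 to -11. The window of another start of FDXR also had CAAGGNCA, downstream of that start, and the windows of STARD3 and TSPO had neither form. These matches are letters only and were not tested as binding sites.
CYP11A1 (chr15:74367647-74367896, minus strand): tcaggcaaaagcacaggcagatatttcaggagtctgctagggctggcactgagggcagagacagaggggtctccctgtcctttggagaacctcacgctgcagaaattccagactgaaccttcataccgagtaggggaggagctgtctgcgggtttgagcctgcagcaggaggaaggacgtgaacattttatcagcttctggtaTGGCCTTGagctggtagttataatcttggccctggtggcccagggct
FDX1 (chr11:110429698-110429947, plus strand): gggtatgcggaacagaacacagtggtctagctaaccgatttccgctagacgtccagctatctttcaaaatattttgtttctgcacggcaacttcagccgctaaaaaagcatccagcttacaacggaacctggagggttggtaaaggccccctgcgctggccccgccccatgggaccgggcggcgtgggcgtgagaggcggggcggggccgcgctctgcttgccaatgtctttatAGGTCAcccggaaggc

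CYP11A1 varied most among the arrays, and its variation did not follow the labels. The enzyme it encodes, P450scc, turns cholesterol to pregnenolone at the inner mitochondrial membrane. Its level was 10.48, 10.91 and 11.90 on Dox 1, 2 and 3, against 10.54, 11.66 and 10.82 on basal 1, 2 and 3. The 2 highest arrays, Dox 3 and basal 2, had opposite labels, as did the 2 lowest, Dox 1 and basal 1. From lowest to highest array the range was 1.42, or 2.67-fold, wider than that of 96.1% of the probe sets at or above the median level. The means were 11.10 ± 0.73 on Dox arrays and 11.01 ± 0.59 on basal arrays (SD, n = 3 each). The difference of 0.09 ± 0.42 (SE) was smaller than the spread within either label (limma adjusted p = 1, exact permutation p = 0.8), and its 95% interval, from -0.89 to 1.07, leaves room for 2.1-fold higher or 0.54-fold. Within a label the gap was larger: Dox 3 was 1.00 above Dox 2, and basal 2 was 1.12 above basal 1.

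STAR differed less and in another order. Its product, the steroidogenic acute regulatory protein, moves cholesterol to the inner mitochondrial membrane, and loss of it in humans causes lipoid congenital adrenal hyperplasia. Signals were 11.53, 11.05 and 10.73 on Dox 1, 2 and 3, against 11.59, 11.27 and 10.97 on basal 1, 2 and 3. The groups overlapped, since Dox 1 lay close to the highest basal array and basal 3 below Dox 2. The means were 11.10 ± 0.40 on Dox arrays and 11.27 ± 0.31 on basal arrays (SD, n = 3 each), a difference of -0.17 ± 0.24 (SE, 95% interval -0.74 to 0.39, limma adjusted p = 1, exact permutation p = 0.7). Dox 3 had the lowest STAR level and the highest CYP11A1 level of the 6 arrays, so the 2 genes did not move together there. The range over all arrays was 0.86, or 1.82-fold.

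TSPO, the translocator protein of the outer mitochondrial membrane, binds cholesterol, and its need in steroid synthesis is debated. Its signals were 6.65, 6.32 and 6.18 on Dox 1, 2 and 3, against 6.74, 6.86 and 6.42 on basal 1, 2 and 3. These were the lowest signals of the 7 probe sets. Dox 2 and Dox 3 lay below every basal array, and Dox 1 lay above basal 3. At 6.38 ± 0.24 on Dox arrays and 6.67 ± 0.23 on basal arrays (SD, n = 3 each), it had the largest mean difference of the 7 probe sets, -0.29 ± 0.18 (SE, 95% interval -0.72 to 0.14), which did not pass (limma adjusted p = 1, exact permutation p = 0.2).

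STARD3, a late endosomal protein with a STAR-related lipid transfer domain, was at 7.69, 7.64 and 7.92 on Dox 1, 2 and 3, against 7.66, 8.03 and 7.67 on basal 1, 2 and 3. As for CYP11A1, Dox 3 and basal 2 were above the other 4 arrays, here by 0.31 on average, against 1.10 for CYP11A1. The means of the labelled groups, 7.75 ± 0.15 for Dox and 7.79 ± 0.21 for basal (SD, n = 3 each), differed by -0.04 ± 0.16 (SE, 95% interval -0.42 to 0.34, limma adjusted p = 1, exact permutation p = 0.8).

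FDX1, the mitochondrial ferredoxin (adrenodoxin) that carries electrons to CYP11A1 and to the 11-beta-hydroxylases, was the steadiest gene in its probe set 203646_at. That set was at 11.01, 10.89 and 10.95 on Dox 1, 2 and 3, against 11.07, 10.99 and 10.88 on basal 1, 2 and 3. Its range of 0.19, or 1.14-fold, exceeded that of only 7.31% of the probe sets at or above the median level, and its difference was -0.03 ± 0.10 (SE, 95% interval -0.28 to 0.22). The set 203647_s_at was at 11.55, 11.39 and 11.20 on Dox arrays, against 11.59, 11.47 and 11.41 on basal arrays, a difference of -0.11 ± 0.12. The set 239161_at was at 8.32, 7.98 and 7.77 on Dox arrays, against 8.19, 7.93 and 8.03 on basal arrays, a difference of -0.03 ± 0.18. The labelled groups overlapped in each of them (exact permutation p = 0.8, 0.4 and 0.9 in that order, n = 3 each, limma adjusted p = 1 for each). The sets did not agree on the order of the arrays, with ranges of 0.19, 0.39 and 0.56, so no single FDX1 level can be given.

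**Figure D1:**
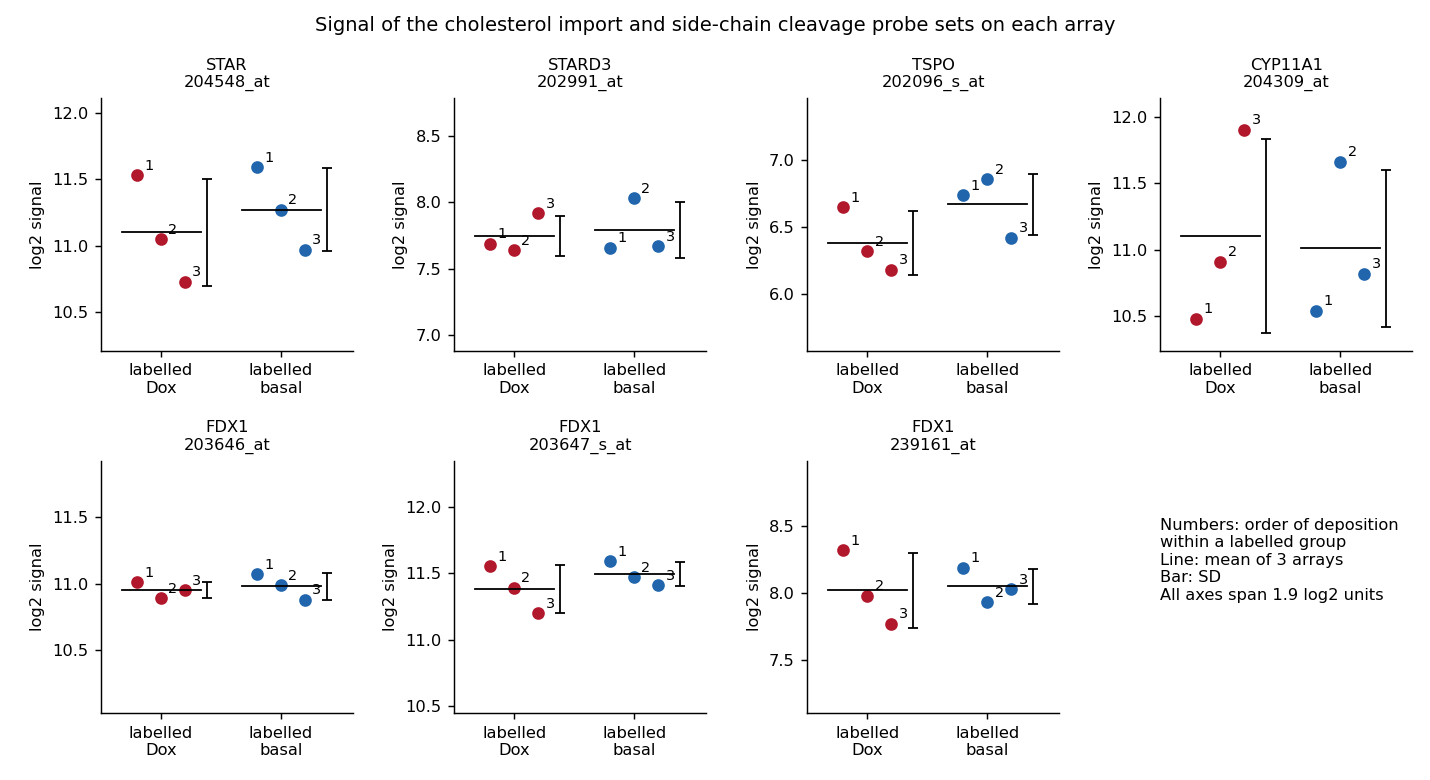
Log2 signal (y axis, each panel spanning the same number of units) of the 7 probe sets on arrays labelled Dox and arrays labelled basal (x axis); points are arrays numbered by order of deposition, lines are means of 3 arrays and bars their SD. The labelled groups overlap in every panel, and CYP11A1 has the widest range, from 10.48 on Dox 1 to 11.90 on Dox 3.

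With all 6 arrays, 0 of the 7 probe sets passed an adjusted p of 0.05 in limma, and neither did any other probe set (0% of 54613, with 373 at an unadjusted p under 0.05). The smallest exact permutation p that 3 against 3 arrays allow is 0.1. The labelled groups overlapped in all 7 probe sets, while 3.81% of all probe sets had groups that did not overlap, 1.74% with the Dox arrays higher and 2.07% with them lower. The differences ran from -0.29 to 0.09 with a median of -0.04, against -0.001 over all probe sets, and 6 of the 7 were below 0. Within the first style of sample titles, which spells out the treatment on Dox 1 and basal 1 alone, Dox minus basal was -0.06 for STAR, -0.09 for TSPO and -0.05 for CYP11A1. Among the 4 arrays with coded titles it was -0.23, -0.39 and 0.16 in the same order.

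The arrays differed by pair more than by label. Dox 1 minus basal 1 and Dox 2 minus basal 3 lay within 0.13 of 0 for all 7 probe sets. In those pairs STAR differed by -0.06 and 0.08, CYP11A1 by -0.05 and 0.09, and TSPO by -0.09 and -0.10. Dox 3 minus basal 2, the pair that was less alike, gave -0.54 for STAR, -0.68 for TSPO and 0.24 for CYP11A1. It gave -0.27, -0.16 and -0.04 for the FDX1 sets 203647_s_at, 239161_at and 203646_at, and -0.11 for STARD3. For STAR, TSPO and 2 of the FDX1 sets (203646_at and 203647_s_at), Dox 1, basal 1 and basal 2 lay above Dox 2, Dox 3 and basal 3, an order found in 6.72% of all probe sets, and none of the 7 had the reverse order, found in 6.66%. For CYP11A1 and STARD3, Dox 3 and basal 2 lay above the 4 others, as in 27.2% of all probe sets, and for the FDX1 set 239161_at they lay below them, as in 22% of all. These orders are descriptions, since arrays of such a pattern were recognised from the same data.

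**Figure D2:**
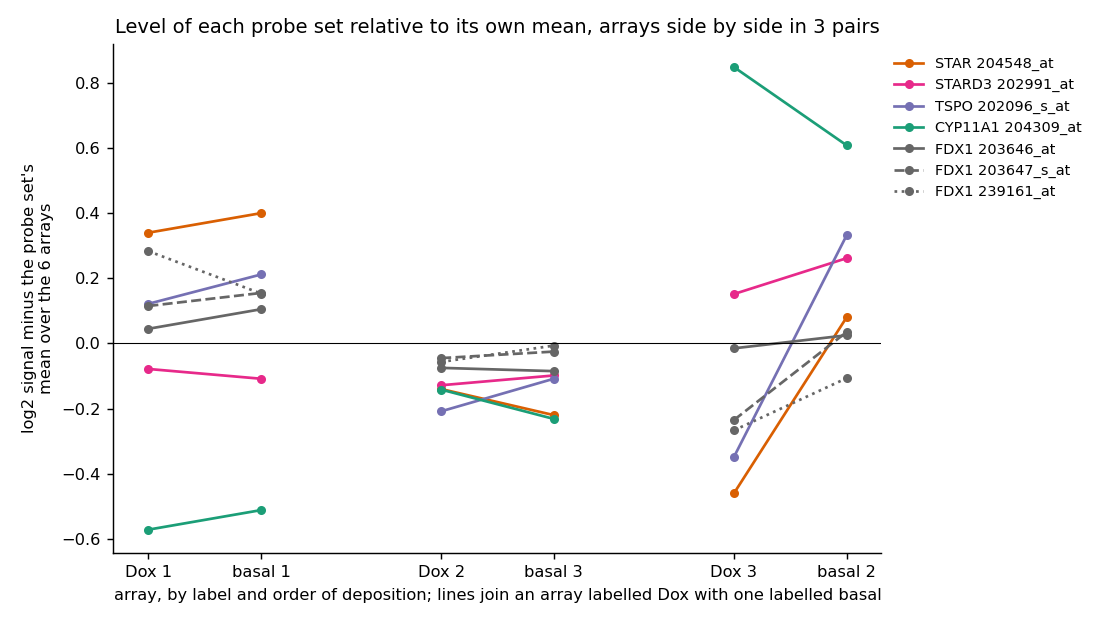
Log2 signal minus the mean of the probe set over the 6 arrays (y axis) for the 7 probe sets, with the arrays placed in 3 pairs of opposite label (x axis) and lines joining the arrays of a pair. The lines are nearly flat from Dox 1 to basal 1 and from Dox 2 to basal 3, and the pair Dox 3 and basal 2 shows -0.54 for STAR and -0.68 for TSPO, with CYP11A1 high on both.

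Because 2 pairs of opposite label were nearly alike, the comparison was repeated without 1 array of each label. Without Dox 1 and basal 3, and with the pair Dox 3 and basal 2 as a block, STAR was lower on the arrays labelled Dox by 1.45-fold (-0.54 ± 0.09, SE, 95% interval -0.74 to -0.34, limma adjusted p = 0.00247, n = 2 each). Its signals there were 11.05 and 10.73 on Dox 2 and 3, against 11.59 and 11.27 on basal 1 and 2. TSPO was lower by 1.47-fold (-0.55 ± 0.14, SE, limma adjusted p = 0.0418, n = 2 each). Dox 2 minus basal 1 was -0.42 and Dox 3 minus basal 2 was -0.68, so both pairs of arrays had the lower value on the array labelled Dox. CYP11A1 was at 0.30 ± 0.09 (SE, 95% interval 0.11 to 0.50) and did not pass (limma adjusted p = 0.0963, n = 2 each). Neither did STARD3, at -0.07 ± 0.13, nor the FDX1 sets, at -0.23 ± 0.09 for 203647_s_at, -0.18 ± 0.13 for 239161_at and -0.11 ± 0.10 for 203646_at. Thus 2 of 7 probe sets passed, both lower, where 4.15% of all 54613 probe sets passed in either direction and 2.09% of all 54613 passed as lower. NR5A1 was at 0.43 ± 0.14 in the same fit and did not pass (limma adjusted p = 0.132).

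These calls depended on which arrays were kept. Without Dox 2 and basal 1, the other members of the same pairs, STAR was at 0.01 ± 0.28, TSPO at -0.23 ± 0.26 and CYP11A1 at -0.05 ± 0.18 (SE, n = 2 each), and 0% of all probe sets passed (518 probe sets at an unadjusted p under 0.05). Without Dox 1 and basal 3 but with no block, STAR and TSPO kept differences of -0.54 ± 0.21 and -0.55 ± 0.20 and did not pass (limma adjusted p = 1 for both, unadjusted p = 0.0431 and 0.0334), and again 0% of all probe sets passed (1580 at an unadjusted p under 0.05). The 4-array fits with the block have 1 residual degree of freedom, and the arrays left out were chosen from the same data. Each block in them held 1 array of each label, so they were paired fits whose pairs also came from these data.

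**Figure D3:**
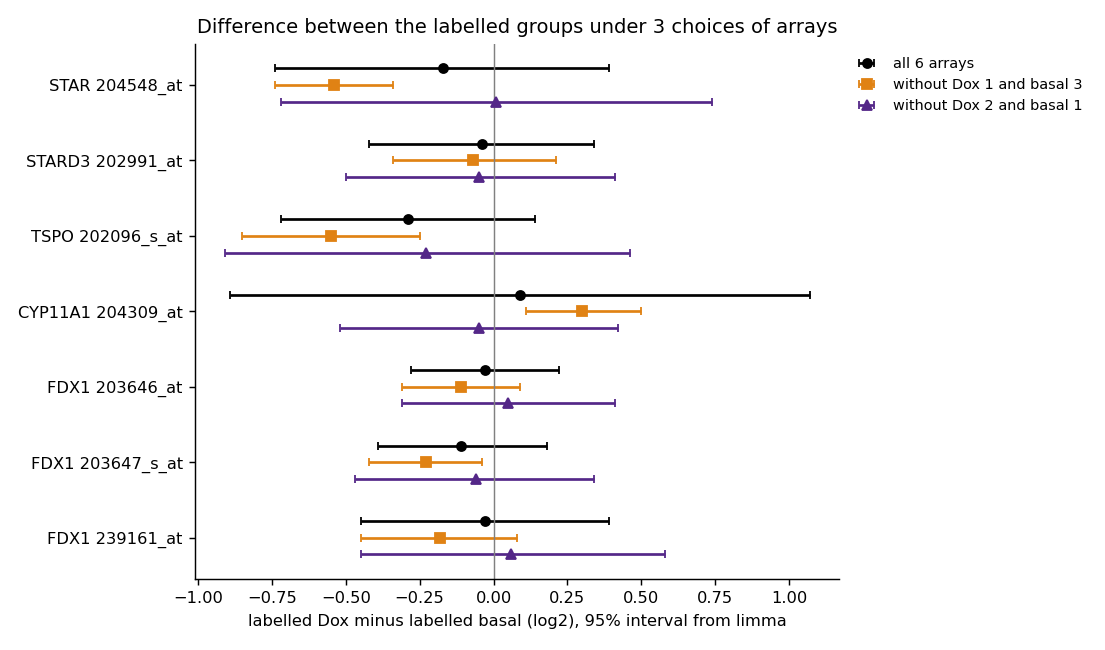
Difference between arrays labelled Dox and arrays labelled basal (x axis, log2, points with 95% intervals from limma) for the 7 probe sets (y axis), with all 6 arrays, without Dox 1 and basal 3, and without Dox 2 and basal 1 (pair as a block in both). Without Dox 1 and basal 3 the whole interval lies below 0 for STAR (-0.54), TSPO (-0.55) and the FDX1 set 203647_s_at (-0.23) and above 0 for CYP11A1 (0.30), while every interval of the other fits includes 0.

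The other genes of the pathway showed the same dependence. Of 55 genes listed, 53 had a probe set with 1 symbol, and each was read from its brightest one. With all arrays, 0 were higher and 0 lower (0 at an unadjusted p under 0.05), and the differences ran from -0.48 to 0.58 with a median of 0.01. Without Dox 1 and basal 3, 4 were higher and 2 lower, or 11.3% of the list against 6.43% of all genes, with a median of 0.02 against -0.01. Without Dox 2 and basal 1, 0 passed (1 at an unadjusted p under 0.05).

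Among 15 sterol carriers and cholesterol supply genes, 3 were higher and 1 lower without Dox 1 and basal 3, where 6.43% of all genes passed. GRAMD1B, which carries plasma membrane cholesterol to the endoplasmic reticulum, had the largest difference, 1.83 ± 0.11 (SE, limma adjusted p = 2.15e-07, n = 2 each). Its signals were 8.46, 10.34 and 10.95 on Dox 1, 2 and 3, against 8.47, 9.17 and 10.38 on basal 1, 2 and 3. Dox 1 was thus as low as basal 1, and basal 3 as high as Dox 2, and with all arrays the difference was 0.58 ± 0.71. Its relative GRAMD1C was at 0.52 ± 0.14 without Dox 1 and basal 3 (limma adjusted p = 0.0436) and 0.21 ± 0.28 with all arrays. APOE, a lipoprotein component, was at 0.67 ± 0.13 without Dox 1 and basal 3 (limma adjusted p = 0.00668), and each of its 3 probe sets passed in that fit. With all arrays the APOE difference was 0.25 ± 0.28. STARD4, a soluble sterol carrier, was at 10.26, 9.66 and 9.09 on Dox arrays, against 10.27, 9.57 and 9.69 on basal arrays, with a difference of -0.55 ± 0.11 without Dox 1 and basal 3 (limma adjusted p = 0.0086) and -0.17 ± 0.32 with all arrays.

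Of 15 partners at the mitochondrial membranes, 0 passed in any of these fits, and neither did any of 10 electron transfer and mitochondrial P450 genes. Of all genes, 6.43% passed without Dox 1 and basal 3, and 0% with all arrays or without Dox 2 and basal 1. In lists this short, 0 calls do not set these genes apart from that share. The partners included the voltage-dependent anion channels VDAC1, VDAC2 and VDAC3 and the TSPO ligand DBI. FDX2, the other mitochondrial ferredoxin, was at 0.01 ± 0.20 with all arrays, and POR, which feeds electrons to microsomal P450 enzymes, at 0.15 ± 0.24. The enzyme that follows side-chain cleavage in the adrenal, HSD3B2, turns pregnenolone to progesterone. It was at 6.36, 5.51 and 6.07 on Dox arrays, against 6.49, 7.89 and 5.0 on basal arrays, so its highest and its lowest value were both on arrays labelled basal. Its difference was -0.48 ± 0.66 with all arrays and -1.40 ± 0.18 without Dox 1 and basal 3 (limma adjusted p = 0.000212), and it lay below the median signal on Dox 2 and basal 3. Of 11 transcription factors tied to STAR and CYP11A1, GATA4 passed without Dox 1 and basal 3 (0.51 ± 0.13, limma adjusted p = 0.0474), in 1 of its 5 probe sets, which ran from -0.12 to 0.51. With all arrays the GATA4 difference was 0.13 ± 0.24.

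**Figure D4:**
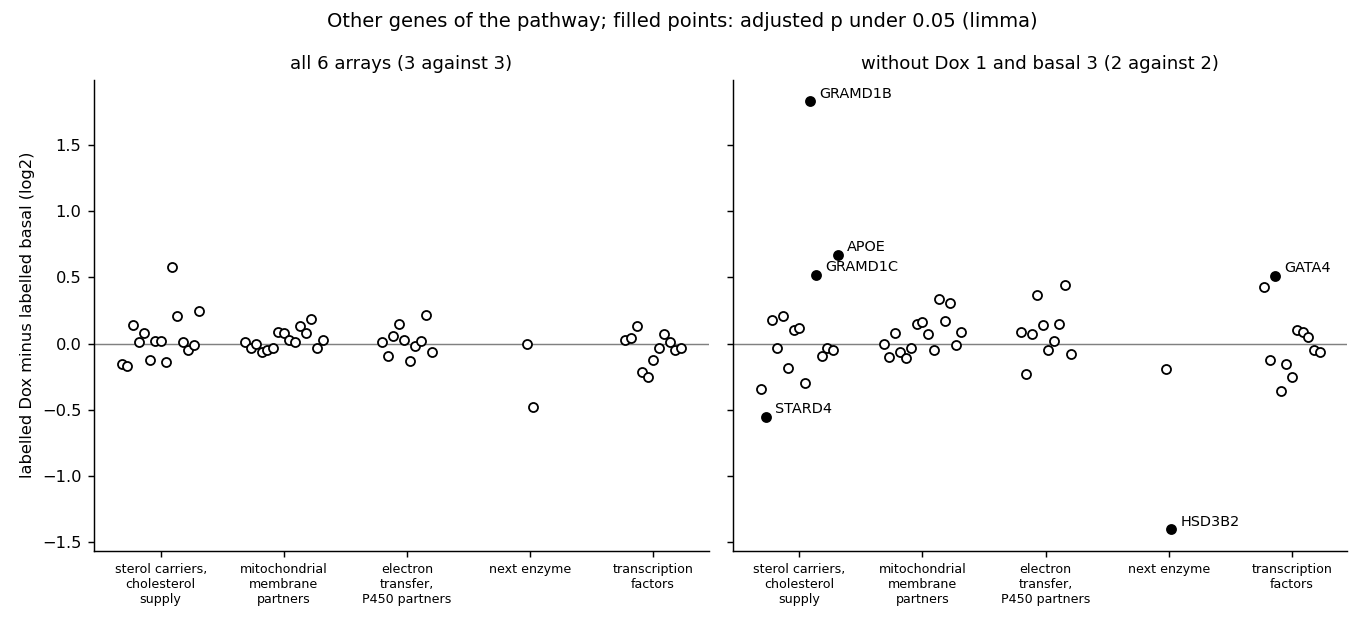
Difference between arrays labelled Dox and arrays labelled basal (y axis, log2) of 53 other pathway genes in 5 groups (x axis), with all 6 arrays on the left and without Dox 1 and basal 3 on the right; each point is a gene, and filled points passed an adjusted p of 0.05 in limma. No point is filled on the left, and on the right GRAMD1B lies highest at 1.83 and HSD3B2 lowest at -1.40.

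Of 21 measured markers of other cells, 2 passed without Dox 1 and basal 3, or 9.52%, against 6.43% of all genes. The stromal collagen gene COL3A1 was at 8.74, 7.08 and 5.47 on Dox 1, 2 and 3, against 8.75, 5.98 and 7.09 on basal 1, 2 and 3, and the secretory granule gene CHGB at 9.11, 8.10 and 6.98 on Dox arrays, against 9.11, 7.46 and 8.14 on basal arrays. Both were lower without Dox 1 and basal 3, at -1.09 ± 0.21 and -0.75 ± 0.14 (SE, limma adjusted p = 0.00568 and 0.00718, n = 2 each). This was 1 of 6 stromal and 1 of 6 chromaffin markers, with 0 of 5 endothelial and 0 of 4 blood cell markers. The median differences of these lists were 0.01, -0.05, 0.06 and 0.02 in that order. Of 9 adrenocortical markers HSD3B2 was lower and SULT2A1, a steroid sulfotransferase, higher (0.68 ± 0.11, limma adjusted p = 0.0015). Signals lay above the median on all arrays for the chromaffin markers CHGA, CHGB and PNMT, the endothelial marker PECAM1, the blood cell markers CD3E and HBB and the stromal markers COL1A1 and PDGFRB. They lay below it on all arrays for TH, DBH and SLC18A1 (chromaffin), VWF, CDH5 and KDR (endothelial), PTPRC and CD14 (blood cells), and COL1A2 and LUM (stromal). The part of these differences in the STAR and TSPO values was not tested.

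The genes whose level over the 6 arrays was most like that of a member were found by Pearson's r. They were taken from 6417 genes with a mean at or above the median level of all probe sets and a range of at least 0.5. This is a description over arrays of which 2 pairs were nearly alike. The 3 most alike are given for each member. For STAR these genes were OSBPL10 (r = 0.998), an oxysterol-binding protein relative, TRIM69 (0.998) and P3H2 (0.996). OSBPL10 was at 10.15, 8.87 and 8.15 on Dox 1, 2 and 3, against 10.23, 9.45 and 8.83 on basal 1, 2 and 3. For CYP11A1 they were ACOT8, a peroxisomal thioesterase (0.999), TPI1, a glycolytic enzyme (0.998), and KCNG1 (0.997). For TSPO they were TCEAL1 (0.997), GINM1 (0.993) and E2F5 (0.991), for STARD3 RYR3-DT (0.999), GPR62 (0.998) and SLC1A4 (0.998), and for the brightest FDX1 set GLIPR1 (0.998), KLHL23 (0.998) and CASP4 (0.997).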

How the data were processed

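The deposited table gives 1 log2 value for each probe set on each of the 6 arrays. The authors' notes name GCRMA with no version, a method that estimates background from probe base content and yields 1 signal for each probe set, and the methods name the array maker's software. Whether all arrays were normalized together is not given in the sources used here. Values entered the tests unscaled and unfiltered. Precision is limited by there being 3 arrays a group, and the 5′ to 3′ control probe sets for RNA quality were not analysed here.

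Probe sets were named from the platform annotation where it gives 1 symbol (41091, 75.2%). Several symbols stood for 1801 probe sets and none for 11721. Symbols were checked by gene identifier, which changed 0, and 54 could not be checked. Members and lists were chosen with earlier results of these data known. Genes named were all members, NR5A1, HSD3B2, pathway genes that passed in a fit used, and the 3 genes most like each member. Marker genes, FDX2, POR, DBI and the VDAC genes were named after values were seen.

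Groups were compared in limma 3.58.1 (R 4.3.3), with lmFit, then eBayes allowing a trend of variance on mean, and Benjamini-Hochberg adjustment over 54613 probe sets. Exact permutation tests used scipy 1.17.1. All tests were two-sided. The fit was tested on simulated data. For each member, 16 alternatives were run. Figures were drawn with matplotlib 3.10.9.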

Additional observations from a re-analysis of the deposited data

How the results depend on the processing

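With all 6 arrays, no member passed under another prior variance, quantile normalization, centring of array medians, a filter on low levels, 1 probe set per gene, or label style or array set as a block, and each kept its direction there. Leaving out 1 array gave differences of -0.39 to 0.01 for STAR, -0.42 to -0.19 for TSPO, -0.31 to 0.42 for CYP11A1, -0.12 to 0.09 for STARD3, and -0.14 to 0.29 for NR5A1. For FDX1 it gave -0.08 to 0.02 (203646_at), -0.19 to -0.02 (203647_s_at) and -0.18 to 0.10 (239161_at), and no call. Without Dox 3 the sign turned for STAR (0.01), CYP11A1 (-0.31), 239161_at (0.10) and NR5A1 (-0.14). Without basal 1 it turned for CYP11A1 (-0.14), 203646_at (0.02), 239161_at (0.04) and NR5A1 (-0.05). Without Dox 2 it turned for STARD3 (0.02), 203646_at (0.00) and NR5A1 (-0.04). Without basal 2 it turned for STARD3 (0.09) and NR5A1 (-0.02), and without basal 3 for CYP11A1 (-0.00). Leaving out 1 array gave 0 to 48 probe sets at 2-fold and an unadjusted p under 0.05, where all arrays gave 0: 48 without basal 3 and 41 without Dox 1.

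Without Dox 1 and basal 3 and with the array set as a block, 1129 probe sets were higher and 1140 lower, 480 passed that 2-fold threshold, 2 member probe sets were called (STAR -0.54, TSPO -0.55), and 4 pathway genes were higher and 2 lower. With no block, chosen after seeing the data, 0 were called and 411 passed the 2-fold threshold. Without Dox 2 and basal 1, 1 passed it, and STAR (0.01), CYP11A1 (-0.05), the FDX1 sets 203646_at (0.05) and 239161_at (0.06) and NR5A1 (-0.13) changed direction. The cause was not tested. Pairing by the labels was not possible, because they give the groups no shared replicate numbers. The blocks used were title style and array set, with array set recognised from the data. In the 4-array fits with array set as a block, each block held 1 Dox and 1 basal array, so those fits were paired by the data.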
